A study of Mus musculus with 8 samples.

Results

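Genomic imprinting is the expression of a gene from only the allele inherited from the mother or only that from the father, set by DNA methylation laid down in the germ line. The set described here is Zfp445, a zinc finger gene whose product helps to keep that methylation in place, and 9 imprinted genes linked to the dormancy of stem cells: H19, Igf2r, Cdkn1c, Grb10, Meg3, Gnas, Ndn, Peg3 and Impact. These 10 genes were taken by symbol from tables of 24222 symbols. The set was chosen by symbol, with Zfp445 selected on its lower counts in the knockout in these same libraries, so the knockout contrast of all 10 is given as a description, with no p-value.

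Counts came from haematopoietic stem cells, the dormant and self-renewing cells that give rise to all blood cells, sorted from the bone marrow of C57BL6 mice 2 weeks after the knockout was induced. The groups were 4 mice with the genotype Kdm4a, b c triple knockout (KO) and 4 WT control mice, with 1 RNA-seq library from each mouse. Kdm4a, Kdm4b and Kdm4c encode demethylases that remove methyl groups from lysines of histone H3. The sources used here do not give the driver of the deletion, the agent that induced it, whether WT mice received that agent, the sort markers, or the sex and age of the mice.

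ZFP445 and the related protein ZFP57 bind methylated DNA at imprinted loci and recruit TRIM28, known as KAP1, which brings in the H3K9 methyltransferase SETDB1 and DNA methyltransferases, so that the marked allele stays marked through cell division. In mice, several imprinted genes are known to be high in long-term stem cells and lower in their progeny, and loss of Cdkn1c or of the maternal H19 region is known to push stem cells out of dormancy. The counts sum both parental alleles, so they measure how much RNA a locus gave and not which allele gave it.

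Total counts were 5541504 to 14872493 in KO and 3594315 to 6044289 in WT. Levels are given as CPM, read counts scaled to a common library total. The cDNA was amplified and carried no molecular identifiers, so counts are reads and not molecules. Kdm4c was at 36.0 ± 10.6 CPM in KO and 115 ± 22.7 CPM in WT (SD, n = 4 each; adjusted p = 2.06e-05, edgeR quasi-likelihood). For Kdm4a and Kdm4b, too, the KO libraries all lay below the WT libraries, with log2 fold changes of -0.87 and -1.40, and did not pass the threshold over all genes (adjusted p = 0.132 and 0.142 by edgeR). These counts sum the whole gene, the deleted part included. Of 11498 genes tested, 67 passed an adjusted p of 0.05. All 14 stem cell markers were high enough to test, and 0 passed edgeR's test. Of the 14, 12 had a log2 fold change below 0, beside 49.8% of all genes, and the median was -0.22. In 4 of the 14 KO lay below WT throughout, beside 2.93% of all genes, and in 1 above, beside 2.88%. The 14 summed to 4190 to 4694 CPM in KO and 5075 to 5425 CPM in WT. Of 12 markers of stroma and endothelium, known to express many imprinted genes, 5 were high enough to test and 7 were not. The 12 summed to 20.01 to 41.97 CPM in KO and 28.4 to 47.85 CPM in WT. Of the 5, 4 had a log2 fold change below 0, with a median over the 5 of -0.46, and 0 passed edgeR's test. Megakaryocyte markers summed to 273 to 291 CPM in KO and 164 to 213 CPM in WT. Among these 6, 5 were high enough to test, and 2, Gp1ba and Itga2b, rose by edgeR's test. The log2 fold change was above 0 in 4 of the 5 and below 0 in 1, Pf4. Pf4 was at 49.3 ± 8.32 CPM in KO and 66.1 ± 9.92 CPM in WT (SD, n = 4 each). Its log2 fold change was -0.43, and its groups overlapped (adjusted p = 0.376 by edgeR). Macrophage and dendritic cell markers summed to 16.6 to 25.9 CPM in KO and 4.76 to 19.1 CPM in WT, and of the 2 that were high enough to test, Cd68 rose and Mrc1 fell (adjusted p = 0.0348 and 0.0198 by edgeR). Summed erythroid, neutrophil and monocyte, lymphocyte, and mast cell and basophil markers overlapped between the groups.

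The letters just upstream of the start sites of 3 genes are shown: Zfp445 and Igf2r, the genes of the set in which no KO library reached any WT library, and Meg3, which holds the hexamer below. Imprinting acts through methylation at CG letters, but methylation was not measured here. These windows were taken by position only, not as the sites of an imprint. Each is the 250 bases before the RefSeq start site (build GRCm38.p6), 5′ to 3′ on the gene's own strand, with CG in capitals.
Zfp445 (chr9:122866007-122866256, minus strand): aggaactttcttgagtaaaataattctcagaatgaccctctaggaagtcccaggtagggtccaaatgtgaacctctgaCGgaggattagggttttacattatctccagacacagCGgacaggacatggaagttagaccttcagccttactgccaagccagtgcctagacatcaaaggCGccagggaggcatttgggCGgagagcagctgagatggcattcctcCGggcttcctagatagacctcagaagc
Igf2r (chr17:12769707-12769956, minus strand): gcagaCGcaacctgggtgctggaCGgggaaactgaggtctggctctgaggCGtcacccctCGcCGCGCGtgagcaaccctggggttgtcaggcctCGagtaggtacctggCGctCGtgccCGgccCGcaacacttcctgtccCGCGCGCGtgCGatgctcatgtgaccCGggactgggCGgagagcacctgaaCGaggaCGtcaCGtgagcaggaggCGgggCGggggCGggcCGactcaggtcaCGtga
Meg3 (chr12:109540746-109540995, plus strand): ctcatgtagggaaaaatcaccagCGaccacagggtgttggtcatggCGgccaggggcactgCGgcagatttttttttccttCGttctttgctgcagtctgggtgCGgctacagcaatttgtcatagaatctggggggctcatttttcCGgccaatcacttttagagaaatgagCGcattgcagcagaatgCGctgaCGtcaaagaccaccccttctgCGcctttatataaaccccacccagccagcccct
The Zfp445 window held 5 CG and the Meg3 window 10, against 27 in that of Igf2r, a count that 91.4% of 32851 promoters of the same length fell below. The hexamer TGCCGC, known in mice as the methylated motif of ZFP57, was searched on both strands of the 12 windows found for 7 of the 10 genes. It occurred only in that of Meg3, once, on the opposite strand and starting at -190 from the start site. Over all promoters of this length 8.68% held it, and a match is a description of letters, not a binding site.

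Zfp445 (chromosome 9, 122844529 to 122866006, minus strand, mm10) was the gene of the set with the largest difference downwards. Its level was 92.0, 97.5, 54.4 and 52.0 CPM in KO mice 1 to 4, against 163, 121, 152 and 124 CPM in WT mice 1 to 4. Every KO library lay below every WT library, and within KO mice 1 and 2 stood well above mice 3 and 4. The means were 74.0 ± 24.1 CPM in KO and 139.9 ± 20.8 CPM in WT (SD, n = 4 each), a fitted log2 fold change of -0.94 (SE 0.19). These are the values that chose the gene. Leaving out any 1 library kept the log2 fold change between -1.10, without KO mouse 2, and -0.78, without KO mouse 3. Zfp445 rested on 280 to 941 counts per library. In bulk counts such as these, fewer cells of a type and less RNA per cell cannot be told apart. Summed stem cell markers were also lower in every KO library, as given above, and their part in the Zfp445 difference was not tested.

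**Figure D1:**
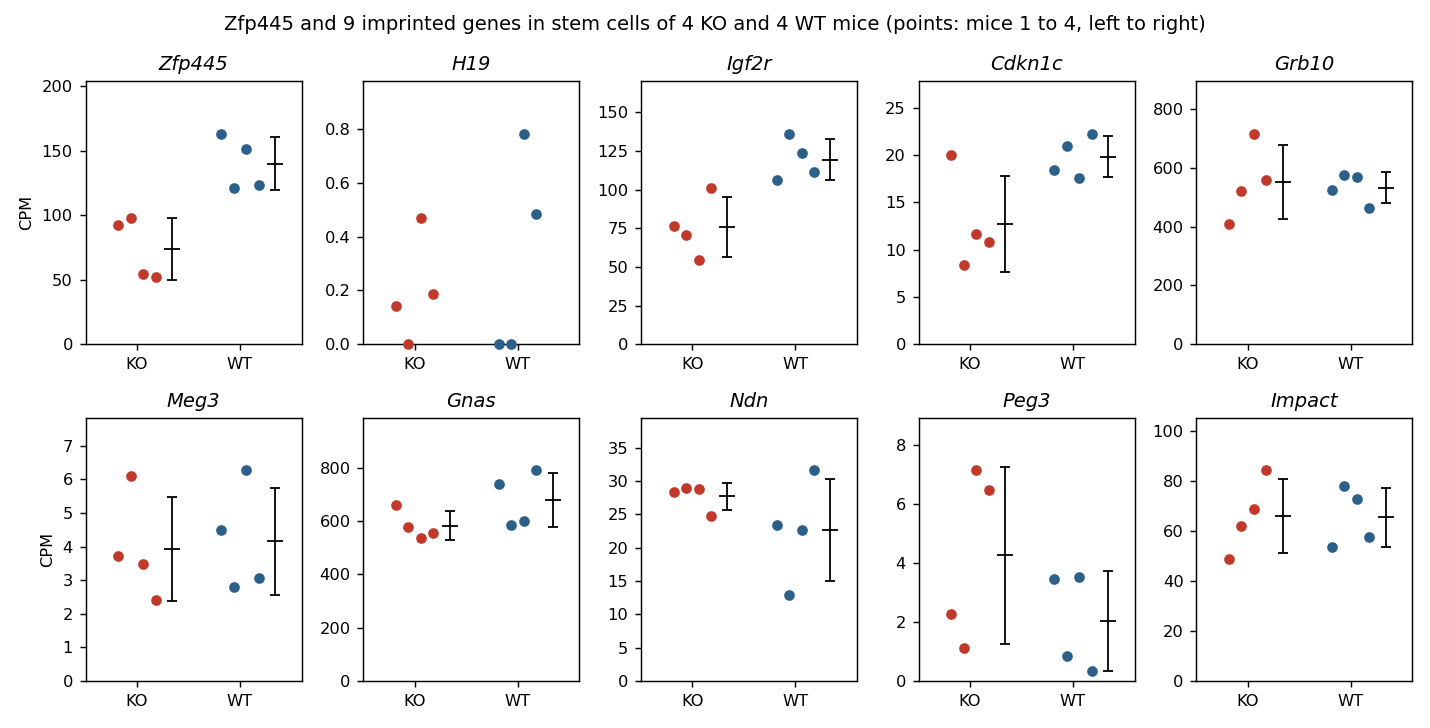
Level of each gene in each mouse, in CPM on axes that start at 0, with KO at the left and WT at the right of each panel, mice 1 to 4 from left to right, and the mean ± SD (n = 4) in black except for H19, which had 0 counts in 3 libraries. The KO points of Zfp445 and of Igf2r all lie below the WT points; in the other panels the groups overlap.

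The maternally expressed growth brake Igf2r showed the same lack of overlap. It encodes the receptor that carries insulin-like growth factor 2 (IGF2) to the lysosome for breakdown (chromosome 17, 12682406 to 12769664, minus strand). Igf2r stood at 76.5, 70.6, 54.75 and 101 CPM in KO mice 1 to 4, against 106, 136, 124 and 111.5 CPM in WT mice 1 to 4. KO mouse 4 came close to WT mouse 1, and the other KO libraries were well below. The log2 fold change was -0.69 (SE 0.18) and stayed between -0.84 and -0.53 when any 1 library was left out.

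Cdkn1c, which encodes the cell cycle inhibitor p57 (chromosome 7, 143458339 to 143461050, minus strand), is maternally expressed and is known as a brake on stem cell division. Its level was 20.01, 8.35, 11.7 and 10.8 CPM in KO mice 1 to 4, against 18.4, 21.0, 17.6 and 22.3 CPM in WT mice 1 to 4. KO mouse 1 lay within the WT range, and the other KO mice were below every WT mouse. The log2 fold change of -0.65 (SE 0.31) became -0.91 without KO mouse 1. Of the exon bases of Cdkn1c, 30.7% are also covered by an antisense gene, and the sources used here do not say whether the counting used strand.

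H19 was close to absent from these counts. This maternally expressed non-coding RNA (chromosome 7, 142575529 to 142578143, minus strand), host of miR-675, had 1, 0, 7 and 1 counts in KO mice 1 to 4, against 0, 0, 4 and 3 counts in WT mice 1 to 4. Only KO mouse 3, the deepest library, and WT mouse 3 exceeded 3 counts, the lower limit used here for calling a gene detected. Summed over mice, H19 gave 0.262 CPM in KO (exact 95% Poisson interval 0.12 to 0.497) and 0.339 CPM in WT (0.136 to 0.699), intervals that cover counting error only. It was not tested and no fold is given.

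Meg3, the maternally expressed non-coding RNA of the Dlk1 locus (chromosome 12, 109541001 to 109571726, plus strand), is known from mouse stem cells for restraining PI3K and mTOR signals through its microRNAs. Its counts were 26, 43, 52 and 13 in KO mice 1 to 4, against 26, 10, 32 and 19 in WT mice 1 to 4. That is 3.92 ± 1.55 CPM in KO and 4.16 ± 1.59 CPM in WT (SD, n = 4 each). The groups overlapped throughout, and the log2 fold change of -0.11 had an SE of 0.49, larger than the difference itself.

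Grb10 and Gnas were by far the most abundant of the set. Grb10 encodes an adaptor that damps signalling from the insulin and IGF1 receptors (chromosome 11, 11930508 to 12038683, minus strand), and is maternally expressed in most mouse tissues but paternally in neurons. It stood at 408, 522, 716 and 559 CPM in KO mice 1 to 4, against 525, 574, 569 and 463 CPM in WT mice 1 to 4. The WT values sat inside the KO range, and the log2 fold change of 0.06 (SE 0.13) changed sign to -0.10 without KO mouse 3, the highest library.

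Gnas encodes the stimulatory G protein alpha subunit that raises cyclic AMP, from a locus (chromosome 2, 174284320 to 174346744, plus strand) whose other promoters are imprinted in opposite directions. The annotation lists 24 transcripts, which the gene count sums. Gnas was at 660, 578, 535 and 555 CPM in KO mice 1 to 4, against 737, 586, 599.9 and 789.5 CPM in WT mice 1 to 4. WT mice 1 and 4 were above every KO mouse while WT mice 2 and 3 were not, and the log2 fold change was -0.22 (SE 0.11). Nespas, an antisense RNA of the same locus that shares 8.83% of the exon bases of Gnas, had at most 6 counts in any library.

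The paternally expressed genes of the set are Ndn, Peg3 and Impact, and in each the groups overlapped. Ndn encodes necdin, a growth suppressor of the Prader-Willi region (chromosome 7, 62346569 to 62350262, plus strand) that is induced by p53 and known to hold stem cells in dormancy. Its level was 28.4, 29.0, 28.75 and 24.7 CPM in KO mice 1 to 4, against 23.4, 12.9, 22.7 and 31.6 CPM in WT mice 1 to 4. The KO mice agreed closely and lay within the wider WT range, with a log2 fold change of 0.24 (SE 0.25) that was 0.10 without WT mouse 2.

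Peg3, a paternally expressed zinc finger gene (chromosome 7, 6703892 to 6730431, minus strand), had the largest fitted difference upwards and the least certain one. It had 16, 8, 107 and 35 counts in KO mice 1 to 4, against 20, 3, 18 and 2 counts in WT mice 1 to 4. In CPM these are 2.29, 1.13, 7.15 and 6.50 in KO and 3.47, 0.839, 3.53 and 0.323 in WT, so KO mice 3 and 4 were high and KO mice 1 and 2 were within the WT range. The log2 fold change of 1.18 (SE 0.65) was 0.55 without KO mouse 3 and 1.603 without WT mouse 1. Among the KO libraries, mice 3 and 4 also had the highest summed levels of stroma and endothelium markers, 30.15 and 41.97 CPM. WT mice 1 to 4 had 47.85, 34.69, 35.26 and 28.4 CPM, so WT mice 1, 2 and 3 were above KO mouse 3. The part of such cells in Peg3 was not tested.

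Impact, paternally expressed in mice and an inhibitor of the amino acid sensor GCN2, lies on chromosome 18. Its level was 48.9, 62.0, 68.9 and 84.3 CPM in KO mice 1 to 4, against 53.6, 78.0, 72.7 and 57.6 CPM in WT mice 1 to 4. The WT values lay inside the KO range, with a log2 fold change of 0.03 (SE 0.19) that was below 0 in 4 of 15 alternatives, down to -0.08 without KO mouse 4.

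Of the 10 genes, 9 passed the filter on low counts. As a description, 1 of these, Zfp445, lay past edgeR's threshold, beside 0.583% of all genes tested (0.33% in the lower direction), and 0 did without KO mouse 3, WT mouse 1 or WT mouse 3. In 2 of the 9, Zfp445 and Igf2r, no KO library reached a WT library from below, beside 2.93% of all genes, and in 0 was KO above throughout, beside 2.88% (5.81% in either direction). Zfp445 was picked for its lower KO values in these libraries, so nothing is read from either count. Across the 9, the median log2 fold change stood at -0.11, with 5 below 0, beside 49.8% of all genes below 0 and a median of 0.002.

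**Figure D2:**
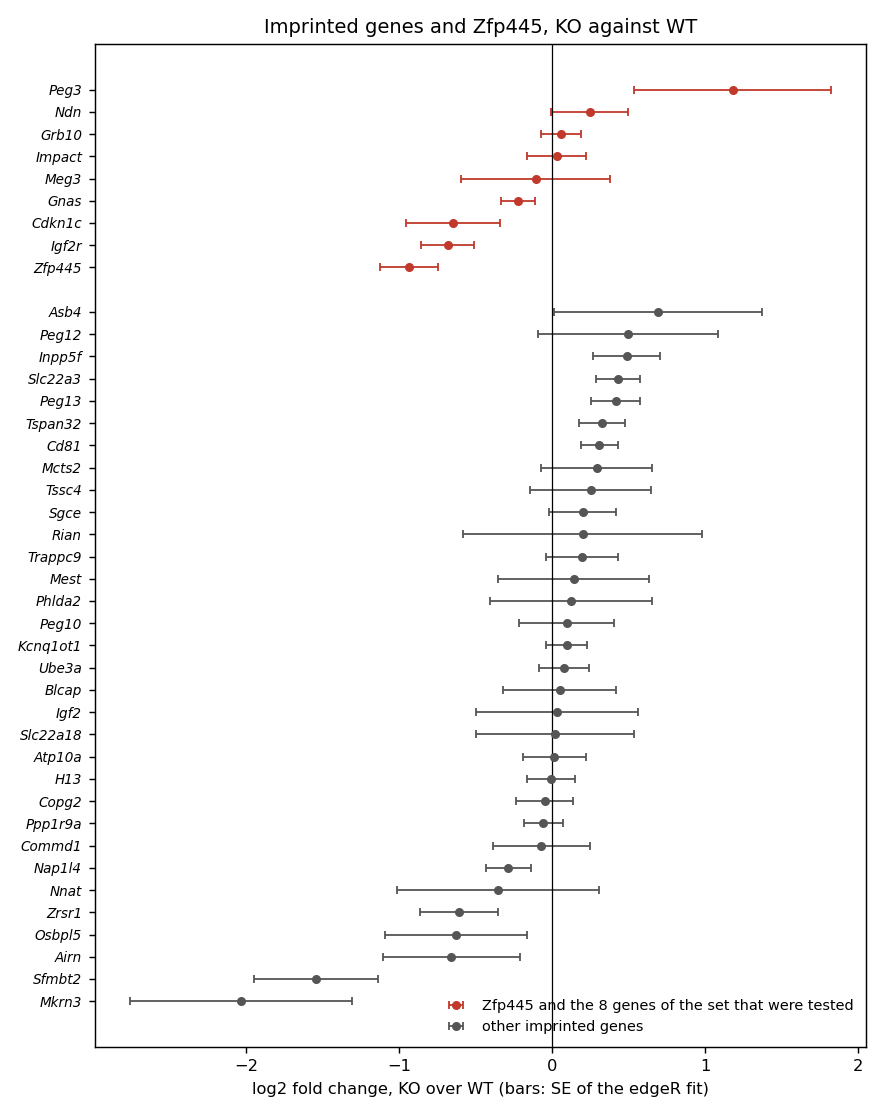
Fitted log2 fold change of KO over WT with its SE for the 9 genes of the set that were tested (red, top) and 32 other imprinted genes that were tested (grey, below), each ordered by size. Zfp445 at -0.94 and Igf2r at -0.69 lie farthest to the left of the set, and Peg3 at 1.18 is farthest right with an SE of 0.65.

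To compare levels between genes, CPM was divided by the kilobases of exon. In WT the order was Gnas at 60.6 ± 9.01 and Grb10 at 58.6 ± 5.65 CPM per kilobase, then Zfp445 at 18.9 ± 2.81, Igf2r at 12.8 ± 1.44, Impact at 12.8 ± 2.29, Cdkn1c at 9.72 ± 1.07 and Ndn at 6.13 ± 2.08 (SD, n = 4). Meg3, Peg3 and H19 were far below, at 0.23 ± 0.0881, 0.153 ± 0.127 and 0.129 ± 0.157 CPM per kilobase. Neighbours whose WT ranges overlapped were Gnas and Grb10, Igf2r and Impact, Impact and Cdkn1c, Meg3 and Peg3, and Peg3 and H19. Between Grb10 and Zfp445, Zfp445 and Igf2r, Cdkn1c and Ndn, and Ndn and Meg3 the WT ranges did not overlap. Gnas and Grb10 exceeded 95.2% and 94.97% of the tested genes in WT level per kilobase, and Zfp445 exceeded 77.9%. In KO, Zfp445 was at 9.99 ± 3.26 CPM per kilobase, below the mean of Impact at 12.9 ± 2.88. Dividing by the longest transcript gave 172 for Gnas and 105 for Grb10 in WT, more than 1.5 times the values above, and put Impact ahead of Igf2r, with the order otherwise the same.

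**Figure D3:**
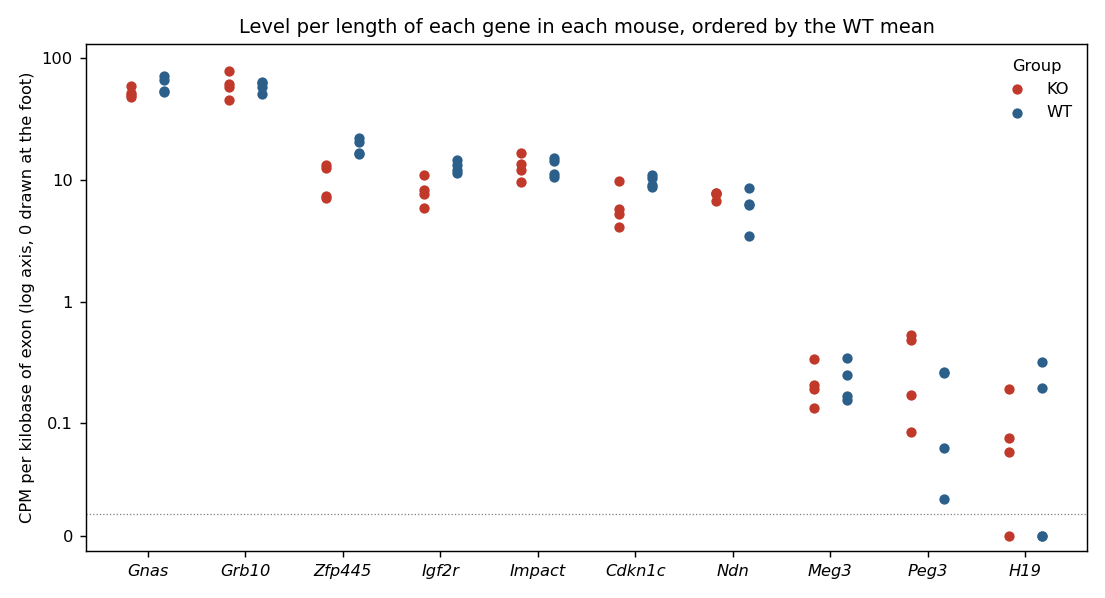
Level per kilobase of exon in each library on a log axis, with KO at the left and WT at the right for each gene and genes ordered by their WT mean; points at 0 are drawn at the foot. Gnas and Grb10 lie near 60 CPM per kilobase, 5 genes between about 6 and 19 in WT, and Meg3, Peg3 and H19 under 1.

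The genes differed in how much mice of the same genotype varied. The SD of log2 CPM within groups was 0.37 for Zfp445, larger than in 92.1% of 3023 tested genes of like level (mean CPM within a factor of 2), and it was larger in KO (0.48) than in WT (0.21). For Grb10 it was 0.26, larger than in 89.8% of genes of like level, with 0.33 in KO and 0.14 in WT. Ndn went the other way, with 0.11 in KO and 0.52 in WT. Peg3 had the largest SD of the set at 1.20, and Meg3, at 0.49, varied less than most genes of its low level, since 16.7% of them had a smaller SD. These spreads are descriptions, and whether KO and WT differed in spread was not tested.

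**Figure D4:**
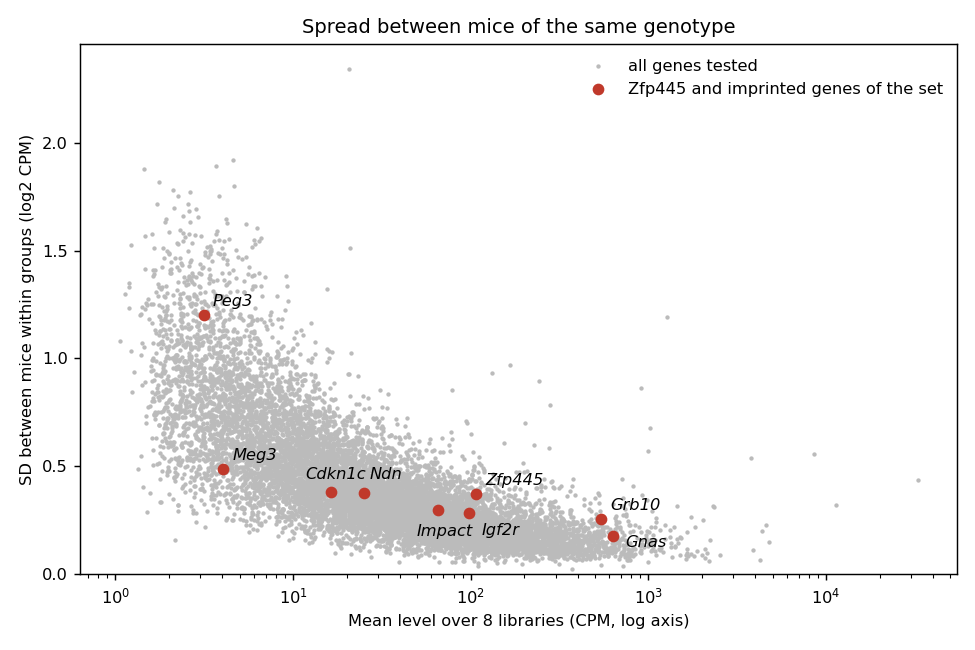
SD between mice within groups, in log2 CPM, against mean level in CPM on a log axis for the 11498 genes tested (grey) and the 9 genes of the set among them (red). Zfp445 and Grb10 lie high for their level, Meg3 low, and Peg3 at 1.20 is the highest of the set.

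Among 6718 genes with a mean of at least 20 CPM (provisional symbols left out), those whose centred log2 profile over the 8 libraries lay nearest that of Zfp445 were Elmod2, Maged1, Sall2, Znrd1 and Pgm2, with root mean square distances of 0.18 to 0.27 log2 units; the median over all those genes was 0.63. Sall2, itself a zinc finger gene, was at 20.4 ± 4.99 CPM in KO and 44.7 ± 9.85 CPM in WT (SD, n = 4 each), and the log2 fold changes of the other 4 were -0.64 to -0.69. Genes picked for nearness to Zfp445 follow its lower KO level by construction, so these differences are descriptions only. Of 304 other genes with Zfp symbols that were tested, 3 fell and 1 rose by edgeR's test, beside 0.33% and 0.252% of all genes. Their median stood at -0.08 on the log2 scale. A log2 fold change at least as low as that of Zfp445 was found in 15 of the 304. The share of all genes that fell so far was not counted, so nothing is read from the 15.

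Zfp57, the gene of the related protein, did not pass the test, nor did Trim28, Setdb1 and Dnmt1, known to act with both proteins. Zfp57 was low, at 2.46 ± 1.24 CPM in KO and 4.51 ± 1.13 CPM in WT. Trim28 was at 167 ± 22.8 CPM in KO and 162 ± 22.9 CPM in WT, and Setdb1 at 62.2 ± 11.5 CPM in KO and 64.7 ± 8.26 CPM in WT. Dnmt1, which copies DNA methylation after replication, was at 693.5 ± 120 CPM in KO and 592 ± 42.98 CPM in WT (SD, n = 4 each). Their log2 fold changes were -0.69, 0.04, -0.05 and 0.23, with adjusted p of 0.669, 0.954, 0.952 and 0.474 by edgeR. Of 23 tested genes of imprint maintenance 0 passed edgeR's test, 0 passed limma voom and 1, Dnmt3a, was lower by DESeq2. At an unadjusted p under 0.05, 3 were lower (5.45% of all genes were lower at that level), and the median of the list was -0.05 on the log2 scale. Dnmt3a, a de novo DNA methyltransferase, was at 190, 215, 230 and 265.5 CPM in KO mice 1 to 4, against 323, 373, 309 and 276 CPM in WT mice 1 to 4. KO lay below WT throughout, with a log2 fold change of -0.50 (SE 0.13; adjusted p = 0.0691 by edgeR, 0.0252 to 0.25 over the alternatives, past the threshold in 3 of 15).

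Of 56 other imprinted genes in the tables, 32 were high enough to test. By edgeR 0 passed over all genes, by limma voom 0, and by DESeq2 1 was lower. Unadjusted, 5 were higher and 3 lower (5.75% and 5.45% of all genes), and 21 of the 32 had a log2 fold change above 0, with a median of 0.08. Sfmbt2, a paternally expressed Polycomb-related gene, had the smallest p. It stood at 3.29, 4.25, 4.81 and 2.79 CPM in KO mice 1 to 4, against 6.59, 12.3, 14.3 and 14.4 CPM in WT mice 1 to 4. KO lay below WT throughout, with a log2 fold change of -1.55 (SE 0.41; adjusted p = 0.0842 by edgeR, 0.0102 to 0.268 over the alternatives, past the threshold in 2 of 15). Per kilobase the most abundant were Cd81, Nap1l4, Slc22a3, Peg13, H13, Tspan32, Ppp1r9a and Mcts2, with means over all libraries of 75.2, 43.1, 31.98, 19.9, 18.2, 16.7, 16.4 and 13.5 CPM per kilobase. Several of these are known to be imprinted only in placenta or brain.

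At the Igf2r locus, neither Airn nor Slc22a3 passed the test. Airn, the paternally expressed RNA that silences Igf2r in cis and runs antisense to it, was at 8.43, 4.39, 4.61 and 10.8 CPM in KO mice 1 to 4, against 16.99, 11.5, 9.79 and 3.23 CPM in WT mice 1 to 4, and shares 0 exon bases with Igf2r. These groups overlapped (log2 fold change -0.66, SE 0.45, adjusted p = 0.632 by edgeR). Slc22a3, an organic cation transporter of the same cluster, was at 160, 158, 193.5 and 151 CPM in KO mice 1 to 4, against 146, 102, 114 and 130 CPM in WT mice 1 to 4. KO lay above WT throughout, at a log2 fold change of 0.43 (SE 0.14), and this did not pass over all genes (adjusted p = 0.221 by edgeR); 9.31% of its exon bases are shared with Plg on the other strand. Slc22a2 was listed at 0.

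Around Cdkn1c, the paternally expressed non-coding RNA Kcnq1ot1 was at 766.5 ± 142 CPM in KO and 722.5 ± 153 CPM in WT (SD, n = 4 each), a log2 fold change of 0.09 (SE 0.13). Its exons span 93090 bases, and per kilobase its means were 8.23 CPM in KO and 7.76 CPM in WT. Cd81 and Tspan32 of the same domain were higher in every KO library than in any WT library, with log2 fold changes of 0.31 and 0.33 and adjusted p of 0.328 and 0.406 by edgeR. Nap1l4, Slc22a18, Phlda2, Tssc4 and Osbpl5 had log2 fold changes of -0.29, 0.02, 0.12, 0.25 and -0.63. Ascl2 had at most 39 counts and was not tested, and Kcnq1 was listed at 0 in all libraries.

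Igf2, the paternally expressed ligand beside H19, ranged from 0.708 to 11.3 CPM in KO and from 3.08 to 8.84 CPM in WT, with a log2 fold change of 0.03 (SE 0.53). Beside Meg3, Dlk1 had at most 19 counts and Rtl1 at most 13, Rian was at 9.29, 5.66, 0.401 and 0.928 CPM in KO mice 1 to 4, against 1.56, 1.96, 7.44 and 1.29 CPM in WT mice 1 to 4, and Mirg and Dio3 had at most 1 and 2 counts. Near Ndn, Ube3a and Atp10a had log2 fold changes of 0.08 (SE 0.16) and 0.01 (SE 0.21). Mkrn3 was low, at 1.02 ± 1.12 CPM in KO and 3.33 ± 1.07 CPM in WT (log2 fold change -2.04, SE 0.73, adjusted p = 0.254 by edgeR), Peg12 had a log2 fold change of 0.50 (SE 0.59), and Magel2 had at most 1 count. Ddc, beside Grb10, had at most 7 counts. Snrpn, Snurf, Usp29, Zim1 and Ins2 were listed at 0 in all libraries. The exons of Snurf lie wholly within those of Snrpn, and such counting can leave out reads that fall on several genes. Snurf covers only 10% of the exon bases of Snrpn, and Usp29 shares 14.3% of its own with Zim3. Such overlap thus bears mainly on the zero of Snurf. The reason for the other zeros was not tested, and none of these zeros was read as absence.

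In the pathways that the imprinted genes feed into, no list held a gene past the threshold by edgeR. Of 21 tested genes of the insulin-like growth factor axis, 0 passed edgeR, 0 limma voom and 1 was lower by DESeq2; unadjusted, 0 were higher and 2 lower, where 5.75% of all genes were higher and 5.45% lower, the shares to set beside the unadjusted counts of the lists that follow too. Igf1, the ligand gene, was at 6.44 ± 1.77 CPM in KO and 15.5 ± 4.74 CPM in WT (log2 fold change -1.22, SE 0.36, adjusted p = 0.138 by edgeR, 0.0402 to 0.366 over the alternatives). Igf1r, the receptor that GRB10 damps, was at 711 ± 123 CPM in KO and 675 ± 77.5 CPM in WT. Of 23 CDK inhibitor and quiescence genes, 0 passed edgeR, 0 limma voom and 1, E2f4, was higher by DESeq2; unadjusted, 4 were higher and 1 lower. E2f4, a transcription factor known for repressing cell cycle genes in resting cells, was at 70.2 ± 5.88 CPM in KO and 46.3 ± 0.944 CPM in WT (log2 fold change 0.60, SE 0.18, adjusted p = 0.138 by edgeR, 0.0183 to 0.299 over the alternatives). The other CIP/KIP inhibitors, Cdkn1a and Cdkn1b, had log2 fold changes of 1.06 (SE 0.39) and -0.22 (SE 0.27), with adjusted p of 0.28 and 0.824 by edgeR. Cdkn1a was low, at 12.4 ± 2.78 CPM in KO and 5.58 ± 2.34 CPM in WT (SD, n = 4 each), with KO above WT throughout. Of 13 GCN2 pathway genes 0 passed by edgeR, DESeq2 or limma voom, with 1 higher and 2 lower unadjusted, and 2 were higher by edgeR when no filter on low counts was used. Psat1, an enzyme of serine synthesis, had the smallest p, at 341.5 ± 60.5 CPM in KO and 250.5 ± 38.5 CPM in WT (adjusted p = 0.158 by edgeR, 0.0462 to 0.442 over the alternatives). Of 19 genes of Gs and cyclic AMP signalling 0 passed by any of these tools, with 1 higher and 1 lower unadjusted; Pde4b, a phosphodiesterase, was at 162 ± 32.96 CPM in KO and 211 ± 35.9 CPM in WT (adjusted p = 0.332 by edgeR, 0.121 to 0.667 over the alternatives).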

How the data were processed

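Per the labels' protocols, total RNA was amplified to cDNA with the Nugen Ovation system, reads were mapped with STAR (Galaxy version 2.4.0d-2) and counted with htseq-count, and the authors tested genes with DESeq2. The submitters' processing notes name build mm10; the sources used here do not name the annotation or the strand setting. The authors deposited raw counts of reads per symbol, without molecular identifiers.

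Genes were kept by edgeR's filterByExpr (minimum count 10, minimum total 15), scaled by TMM and compared with edgeR 4.0.16 (quasi-likelihood, robust, genotype as the term, all 8 libraries), in R 4.3.3, two-sided, with Benjamini-Hochberg adjustment over all genes tested. CPM use TMM-adjusted totals. SDs of log2 CPM use a prior count of 2. Lengths and positions are from GENCODE vM21 (mm10); 23053 of 24222 symbols matched directly and 794 by synonym. Promoters are from RefSeq. The procedure was tested on simulated data. Each mouse was treated as a replicate, and no 2 libraries of a group agreed within sampling noise (chi-square per degree of freedom at least 10.9). The genes of the set, the gene lists and the rule for named genes (from each list, genes past the threshold or the smallest p, plus genes of the members' loci and the highest levels) were chosen with earlier results of these data known. Alternatives were other scalings and filters, DESeq2 1.42.0, limma 3.58.1 voom, a replicate block, and omission of each library.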

Additional observations from a re-analysis of the deposited data

Results flagged for a closer look

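A sample far from the other 3 of its group was looked for in 48 groups of 4 values (24 named genes in KO and WT), of which chance alone flags about 1 in 20, and 3 were found. Ndn was at 24.7 CPM in KO mouse 4, against 28.4 to 29.0 CPM in the other KO mice. Setdb1 was at 45.0 CPM in KO mouse 1, against 65.96 to 69.1 CPM in the other KO mice. Pde4b was at 264 CPM in WT mouse 2, against 188 to 199 CPM in the other WT mice.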

How the results depend on the processing

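The count of genes past the threshold was 67. It was 198 without a filter and 154 with DESeq2, and both held all 67. It ran from 35 to 70 when 1 library was left out, with 35 without WT mouse 3 and 44 without WT mouse 2 or KO mouse 4. Without a filter 1 other imprinted gene, 1 imprint maintenance gene and 2 GCN2 pathway genes passed. With DESeq2 1 gene passed in each of the other imprinted, imprint maintenance, insulin-like growth factor and CDK inhibitor lists. With 1 library left out, the imprint maintenance count ran from 0 to 1 (Dnmt3a, without WT mouse 4) and the CDK inhibitor count from 0 to 1 (without KO mouse 1). All other list counts stayed at 0. With the mouse number as a replicate block 57 genes passed, 50 of them among the 67, and 1 gene of the set did. Same-numbered KO and WT mice had correlations of -0.09 to -0.01 in their deviations, and differently numbered ones -0.10 to 0.15. These values cannot decide whether same-numbered mice shared more than a number. Without a filter or with DESeq2, where 198 and 154 of all genes passed, 2 of the set did. As above, nothing is read from these counts of the set. Zfp445, Igf2r, Cdkn1c and Gnas were below 0, and Ndn and Peg3 above 0, under each alternative in which they were fitted, while Grb10, Meg3 and Impact changed sign in 2, 1 and 4 of them. H19 was at or under 7 counts in each library, too low to test.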
